A study of Drosophila melanogaster with 26 samples.

Results

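The 9 Zf5 libraries were examined as a developmental series. They were 9 of the 26 RNA sequencing libraries of Drosophila melanogaster embryos, 3 from day 1 and 6 from day 2, and they were taken by their titles. Their genotype was labelled mNG-ZF5 GLC on both days; the name points to the fifth zinc finger of Zelda, and the labels do not say how the finger was altered or what GLC stands for. Zelda is encoded by zld. The 9 wild-type (WT) libraries were labelled sfGFP-ZLD on day 1 (3 libraries) and H2B-EGFP on day 2 (6 libraries), so the WT genotype changed with the day. The remaining 8 libraries, labelled Zld294, came from day 3 and were used only for levels. Every sample was a pool of 3 embryos picked at nuclear cycles 13 to 14, and no ages in minutes were used. Nothing in the labels says that samples of a group came from separate crosses, so p-values measure the spread between these samples, which may be technical.

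Each library was given a stage score, the mean log2(TPM + 1) of 8 maternally supplied transcripts: bcd, nos, osk, CycB, twe, Hsp83, pgc and gcl. TPM is a length-corrected share of a library's transcripts. The order of the libraries was thus chosen by the measured levels of these 8 genes, which were left out of every test. A lower score was read as a later stage. Every other gene was then related to the score with the labelled day as a covariate, to see which transcripts still appeared and which were cleared as Zf5 embryos aged. A slope is the change of log2(TPM + 1) per unit fall of the score, so a positive slope means a higher level in later libraries.

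Early fly development runs on RNA and protein that the mother loads into the egg. During the maternal-to-zygotic transition these transcripts are degraded, first by maternally encoded factors such as Smaug and later by zygotic products, while the embryo's own genome is switched on. Zelda is a maternally supplied pioneer factor: it binds its short DNA motif in closed chromatin and opens the enhancers and promoters of many early zygotic genes. Its DNA contacts are made by a cluster of C2H2 zinc fingers near its C-terminus.

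The Zf5 libraries spread far along the score. In order from early to late, the score was 8.86, 8.71 and 8.48 in replicates 1, 3 and 5 of day 2, 7.61 and 6.89 in replicates 2 and 3 of day 1, 6.27 in replicate 2 of day 2, 5.67 in replicate 1 of day 1, and 5.61 and 4.11 in replicates 4 and 6 of day 2. All 3 day 1 libraries lay between the early and the late ones of day 2. The range was 4.75 units in Zf5, 0.886 in Zld294 and 1.89 in WT. WT scores ran from 8.74 to 6.85. Of the Zf5 libraries, 4 lay within the WT range, 4 were later than the latest WT library and 1 was earlier than the earliest. All that follows on late Zf5 embryos therefore has a WT counterpart only down to a score of 6.85.

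**Figure D1:**
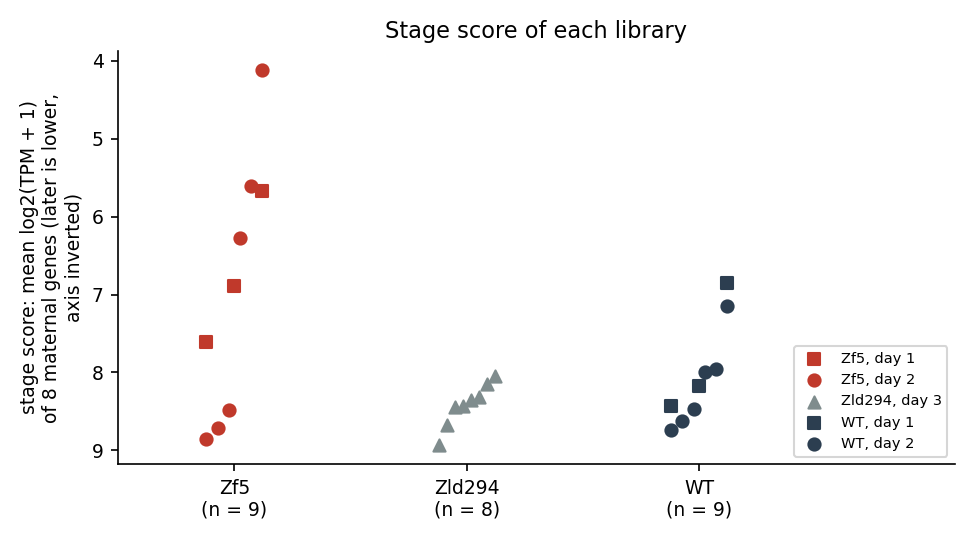
Stage score of every library by genotype, with the axis inverted so that later libraries sit higher; squares are day 1, circles day 2 and triangles day 3. The Zf5 points run from 8.86 to 4.11, whereas the WT points stop at 6.85.

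The score genes chose the order, so their levels are a description. The germ plasm mRNA nos had 386, 238, 159, 132, 95.7, 44.6, 9.52, 39.9 and 5.24 TPM from the earliest to the latest Zf5 library. The pole cell gene pgc had 382, 226, 110, 66.0, 25.3, 17.7, 10.8, 14.9 and 2.26 TPM in the same order. The mitotic cyclin gene CycB stayed between 2753 and 4807 TPM in the first 5 libraries and had 91.0 TPM in the last. Not all 8 genes fell steadily. The anterior determinant bcd had 48.7 TPM in the earliest library, 356 TPM in the third and 4.54 TPM in the latest. The phosphatase gene twe had 113 TPM in the earliest library and its highest level, 341 TPM, in the sixth. Hsp83, a chaperone gene, had its lowest level, 42.5 TPM, in the seventh library and 117 TPM in the latest.

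The level of zld itself did not follow the score. It had 148 TPM in the earliest Zf5 library, between 402 and 953 TPM in the next 7 and 284 TPM in the latest, against 900.2 to 1344 TPM in WT. The slope in Zf5 was -0.06 (SE 0.16, limma adjusted p = 0.755). Without the earliest library, day 2 replicate 1, it was -0.28 with an adjusted p of 0.0139, and in day 1 alone -0.49 with an adjusted p of 0.0101. In day 1 alone a line was fitted to 3 libraries, so limma's p-values there rest mainly on spread pooled over genes. For twi the adjusted p was 7.9e-32 there and 0.0042 in the 6 libraries of day 2. Such p-values say little about the spread of a single gene. zld lies on chromosome X from 19766465 to 19783548 in the BDGP6.54 annotation. TPM does not show whether the zld transcripts carry the altered finger.

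Replicates 4 and 6 of Zf5 day 2, the 2 latest libraries, stood apart in how many genes they expressed. They reached 1 TPM at 8847 and 8913 genes, against 6739 to 7552 in the other 7 Zf5 libraries and 6823 to 7058 in WT. Of 6151 genes under 1 TPM in all 7 other libraries, 1029 in replicate 4 and 1165 in replicate 6 reached it, with summed levels of 3560 and 4800 TPM against 117 to 689 TPM in the others. Among the more abundant of them in the pair was CG31038, at 20.2 and 68.9 TPM. Egg chamber and adult markers stayed low. The 12 follicle cell and eggshell genes summed to 0.0769 to 6.64 TPM in Zf5 and 0.0834 to 0.931 TPM in WT, and no member reached 1 TPM in 3 Zf5 libraries. The 12 adult or larval genes summed to 0.584 to 17.9 TPM in Zf5 and 0.579 to 6.40 TPM in WT. Markers of a differentiating late embryo were higher: the 7 genes summed to 0.500 to 129 TPM in Zf5, against 0.339 to 19.4 TPM in WT. Of these, elav, a neuronal RNA-binding protein gene, had 0, 0.181, 0.705, 3.11, 15.1, 39.2, 25.4, 106 and 44.8 TPM from early to late. The part of these markers in the slopes was not tested.

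A large part of the transcriptome moved with the score in Zf5. Of 7900 genes tested, 2606 (33%) were higher and 2829 (35.8%) lower in later libraries by limma with Benjamini-Hochberg adjustment at 0.05, 68.8% in all. The median slope over all tested genes was -0.0028. Slopes of at least 1, a doubling of TPM + 1 or more per unit of score, were found in 146 called genes (1.85% of those tested), and slopes of -1 or less in 203 (2.57%). Without the 2 latest libraries of day 2 described above, an alternative added after the data were seen, 417 genes were called higher and 1588 lower. Of the 5435 calls, 4892 could still be tested there; 4818 of those kept the sign of the slope and 1946 kept the call. In day 2 alone all 5247 calls that could be tested kept their sign; in day 1 alone, with 3 libraries, 4021 of 4528 did. The same libraries had made the calls, so kept signs are not independent of them. In bulk samples fewer cells of a type and less RNA per cell cannot be told apart.

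The 8 steepest rises were those of ci, HmgZ, bnb, Pka-C3, Ama, ptc, Tom and KP78b. The transcription factor gene of the Hedgehog pathway, ci, had 0, 0, 0.501, 7.32, 18.5, 85.9, 131, 240 and 616 TPM from the earliest to the latest Zf5 library (slope 2.15, SE 0.13, adjusted p = 1.02e-05). It was higher in each library than in the one before from the third onward. The Hedgehog receptor gene ptc had 0.215, 0, 1.53, 17.2, 50.5, 77.9, 270, 340 and 266 TPM (slope 1.93, SE 0.19, adjusted p = 3.00e-05). Both genes were near 0 in the first 2 libraries and at or above 77.9 TPM in the last 4.

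HmgZ, which encodes an HMG-box chromatin protein, stayed at or under 2.11 TPM in the first 5 libraries and had 68.7, 46.4, 224 and 424 TPM in the last 4 (slope 2.10, adjusted p = 1.48e-05). The blastoderm gene bnb had 1.11 and 0.704 TPM in the first 2 libraries, 24.3 TPM in the third, and 1655 TPM in the last (slope 2.09, adjusted p = 0.000105). Ama, an immunoglobulin-domain protein gene within the Antennapedia complex, had a lowest, median and highest level of 0.236, 34.8 and 549 TPM (slope 1.96). Tom, a Bearded family gene whose products restrain Notch signalling, had 0.535, 61.8 and 645 TPM (slope 1.87). Pka-C3, which encodes a kinase catalytic subunit, had 0.150, 10.6 and 302 TPM (slope 1.97), and the kinase gene KP78b had 0, 18.6 and 260 TPM (slope 1.82). For these 8 genes the lowest level was in the first or second library, and the highest in the last or, for ptc, the eighth. KP78b overlaps KP78a on the same strand, ci overlaps an antisense RNA, and HmgZ overlaps HmgD on the other strand, so reads of those pairs may have been shared. All 8 slopes stayed past the threshold in every alternative in which the gene was tested.

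**Figure D2:**
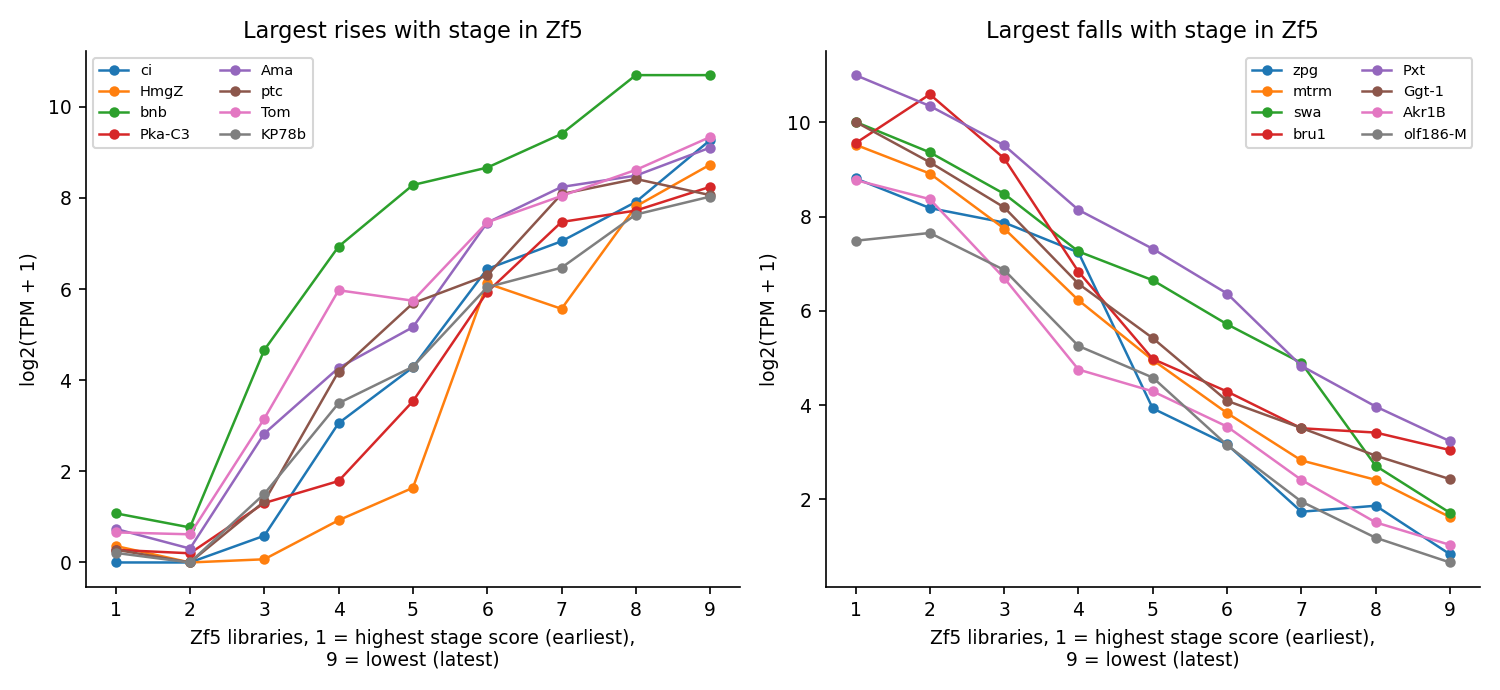
Levels of the 8 steepest rises (left) and 8 steepest falls (right) in the 9 Zf5 libraries, as log2(TPM + 1), ordered from the highest stage score to the lowest. The rising genes are near 0 in libraries 1 and 2, and the falling genes are highest in library 1 or, for bru1 and olf186-M, in library 2.

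The segmentation hierarchy was read tier by tier. Pair-rule genes, which subdivide the blastoderm into stripes, rose: 6 of 8 were called higher and none lower, with a median slope of 1.04. The zinc finger gene opa had 0.502, 0.153, 1.19, 3.36, 10.5, 23.1, 42.3, 204 and 253 TPM (slope 1.75, adjusted p = 1.91e-05). The zinc finger repressor gene odd had 0.359, 0.534, 6.80, 35.1, 49.8, 93.0, 74.2, 116 and 90.5 TPM (slope 1.32, adjusted p = 0.000568). In day 1 alone its slope was 0.54 (adjusted p = 0.0698). From the sixth library on odd had 74.2 to 116 TPM, whereas opa was far higher in the last 2 libraries than before. The step of opa from 42.3 to 204 TPM lay between libraries of different days with close scores, 5.67 and 5.61. The paired-domain gene prd had a lowest, median and highest level of 0.285, 6.44 and 145 TPM (slope 1.30, adjusted p = 0.000514). Without the 2 latest day 2 libraries, 3 of 8 pair-rule genes were called and prd was not (slope 0.87, adjusted p = 0.119).

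Segment polarity genes, which fix the boundaries between segments, gave 6 called higher and none lower of 11 tested, with a median slope of 0.58. Besides ci and ptc, the Wnt feedback inhibitor gene nkd stayed under 1 TPM through the first 5 libraries and had 7.11, 5.11, 151 and 265 TPM in the last 4 (slope 1.75, adjusted p = 3.44e-05). Homeotic genes give segments their identity. In a list of these and of neighbours such as Ama, 8 of 9 tested were called higher and none lower (median slope 0.89). The abdominal gene abd-A had 0.842, 0.366, 5.40, 13.1, 16.6, 34.5, 17.5, 33.7 and 154 TPM (slope 1.22, adjusted p = 0.000155), but in the 3 libraries of day 1 alone the slope was 0.19 (adjusted p = 0.763). The thoracic gene Antp passed 10 TPM only in the last 2 libraries, with 21.6 and 83.7 TPM (slope 1.16, adjusted p = 3.22e-05; 0.43 and adjusted p = 0.442 in day 1 alone). In WT these genes were barely present: abd-A reached at most 1.55 TPM and Antp at most 0.448 TPM. For comparison, 33% of all tested genes were called higher and 1.85% had a called slope of at least 1. Slopes of at least 1 were found in 50% of pair-rule and 27.3% of segment polarity genes. They were found in 33.3% of the homeotic list, Ama among them.

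Gap genes, the first zygotic tier, behaved differently within the list. Of 13 tested, 2 were called higher and 2 lower, against 33% and 35.8% of all genes tested, with a median slope of 0.47. Single libraries weighed on this: without replicate 6 of day 2, the latest, 7 were called higher (median 1.04), and without replicate 5, 6 were (median 0.69). The median was 0.24 without replicate 1 and 0.29 without replicate 3 of day 2. The nuclear receptor gene knrl had 69.4 and 86.3 TPM in the last 2 libraries and at most 9.17 TPM before (slope 1.44, adjusted p = 0.000111). The head gap gene oc had 0.426, 1.39, 23.1, 40.8, 64.5, 87.9, 68.3, 395 and 74.9 TPM (slope 1.21, adjusted p = 0.0056), a slope that was not called without the 2 latest day 2 libraries (1.47, adjusted p = 0.0514) or in day 1 alone (0.34, adjusted p = 0.317). The head gene cnc fell, with 210, 336, 234, 145, 76.0, 27.3, 16.6, 29.7 and 5.58 TPM (slope -1.17, adjusted p = 1.27e-05). Many members went up and then down, so that a straight line described them poorly. The trunk gap genes Kr, kni and gt, named after their values were seen, had at most 7.25 TPM in the first 2 Zf5 libraries and reached 255, 225 and 353 TPM between the fifth and the eighth. They had 25.7, 31.0 and 20.6 TPM in the last, and their slopes were 0.65, 0.54 and 0.47 with adjusted p-values of 0.0569, 0.143 and 0.263.

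The same course was seen in other blastoderm genes. The cellularization gene nullo, whose product stabilises the furrow tips, had 2.91, 5.27, 64.9, 131, 319, 223, 220, 46.4 and 6.19 TPM from the earliest to the latest Zf5 library, with a slope of 0.25 (adjusted p = 0.541). Sry-alpha, which acts in the same furrows, climbed to 301 TPM in the eighth library and had 26.5 TPM in the ninth (slope 1.08, adjusted p = 0.011; 1.87 without the latest library). Over all genes tested 33% were called higher and 35.8% lower. The cellularization list was near the first share: of 17 tested, 6 were called higher and 1 lower, with a median slope of 0.22. The median was 0.036 without replicate 1 of day 2, and 0.34 with 9 of 16 called higher without replicate 6. term had 1.15, 2.03, 25.5, 48.1, 75.0, 91.0, 111, 106 and 117 TPM (slope 1.11, adjusted p = 0.00138), whereas WT libraries reached 838 and 1152 TPM. Among all 6513 tested genes with a mean of at least 5 TPM in Zf5, 28.2% had their highest level in the latest 2 libraries, 19.3% in the middle 4 and 52.5% in the earliest 3. Of 13 gap genes of that level, 4 peaked in the latest 2, 6 in the middle 4 and 3 in the earliest 3. Of 8 pair-rule genes, 7 peaked in the latest 2.

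**Figure D3:**
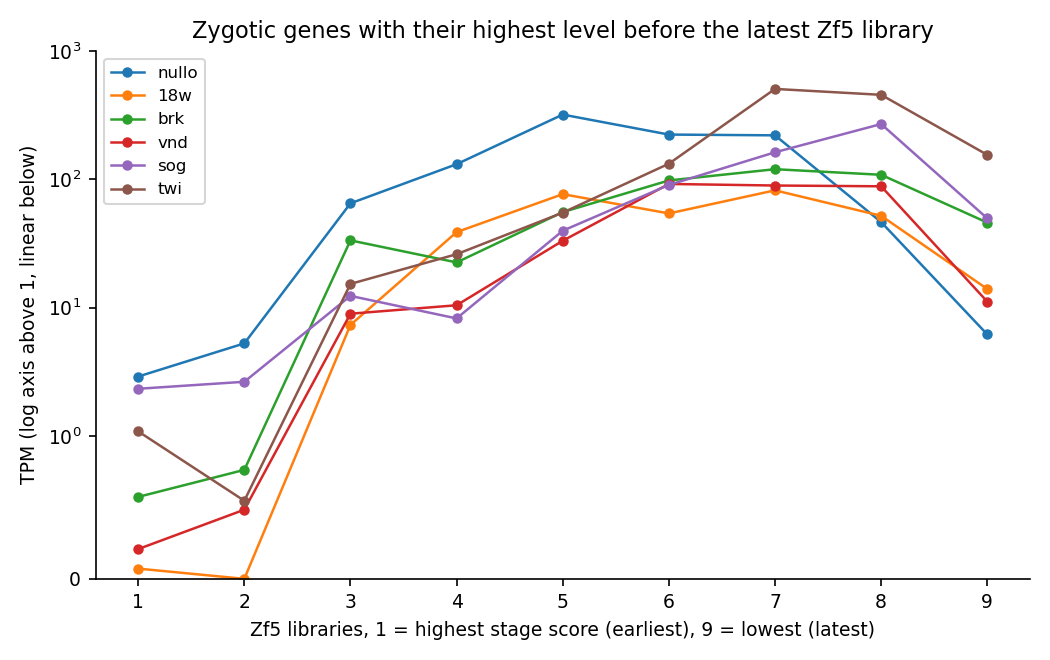
TPM of 6 zygotic genes in the 9 Zf5 libraries, ordered from early to late, on an axis that is logarithmic above 1 and linear below. All 6 rise between libraries 2 and 3 and are lower in the ninth library than at their highest; nullo goes from 319 TPM in the fifth to 6.19 TPM in the ninth.

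Many genes that pattern the dorsoventral axis rose in Zf5 as well, but some stayed near the floor. Over all genes tested 33% were called higher and 35.8% lower. In the dorsal ectoderm and BMP list 13 of 17 tested were called higher and none lower (median slope 0.65, and 0.98 without replicate 6 of day 2). The BMP antagonist gene sog had 2.34, 2.65, 12.3, 8.24, 39.7, 90.2, 162, 269 and 49.5 TPM (slope 1.15, adjusted p = 0.00289; 1.86 without the latest library). The repressor gene brk had a lowest, median and highest level of 0.574, 45.9 and 120 TPM (slope 1.06, adjusted p = 0.00885; 1.61 without the latest library). Ance, a peptidase gene of the dorsal tissue, stayed low, at 0 to 41.2 TPM (slope 1.01, adjusted p = 0.000527).

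In the mesoderm and gastrulation list 14 of 20 were called higher and 5 lower (33% and 35.8% over all genes tested). The median slope was 0.88. The mesoderm determinant twi had 1.09, 0.547, 15.3, 26.1, 54.9, 132, 504, 454 and 155 TPM (slope 1.59, adjusted p = 0.000572). Mdr49, a transporter gene, followed the same course with 0.403, 0.169, 18.5, 43.7, 26.4, 126, 603, 542 and 210 TPM (slope 1.72, adjusted p = 0.000791). The signalling adaptor gene Traf4 stayed under 1 TPM through the fourth library and reached 113 TPM in the eighth (slope 1.66, adjusted p = 9.54e-05). The 5 members that fell, named after their values were seen, were Mef2, zfh1, T48, fog and mthl1, with slopes of -0.67, -0.70, -0.61, -0.53 and -0.45. Mef2 and zfh1 encode mesodermal transcription factors, and had 81.4 and 95.5 TPM in the earliest Zf5 library.

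In the neuroectoderm list 7 of 11 tested were called higher and none lower (median slope 0.57), against 33% and 35.8% of all genes tested. The Sox gene SoxN rose from the third library on, to 57.8 TPM in the fourth and 143 TPM in the last (slope 1.30, adjusted p = 0.00123). That rise rested on day 2: in the 3 libraries of day 1 the slope was -0.01 (adjusted p = 0.982), and without the 2 latest day 2 libraries it was 1.44 (adjusted p = 0.0606). The EGF receptor gene Egfr had 0, 0, 0.0716, 1.38, 0.315, 2.08, 3.43, 21.0 and 38.7 TPM (slope 1.11, adjusted p = 0.000148), against a highest level of 275 TPM in WT. The columnar gene vnd had 88.1 to 91.8 TPM in the sixth to eighth libraries and 11.1 TPM in the last; its slope of 0.98 (adjusted p = 0.0192) was not called without replicate 1, 3 or 4 of day 2, with adjusted p-values of 0.0694, 0.0598 and 0.0553, and was 1.81 without replicate 6.

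Over all genes tested 33% were called higher and 35.8% lower. Of the Toll-family and ectoderm genes of germband extension, 9 of 13 were called higher and none lower (median slope 0.34). Without replicate 3 or without replicate 6 of day 2, 5 were called higher. The epidermal factor gene grh had 0, 0.214, 0.697, 1.26, 2.73, 11, 28.6, 83.9 and 91.1 TPM (slope 1.53, adjusted p = 2.92e-05). The Toll-family receptor gene Toll-6 reached 36.0 TPM in the last library and at most 8.25 TPM before (slope 0.94, adjusted p = 0.000191; 0.55 and adjusted p = 0.0760 without the 2 latest day 2 libraries). Its relative 18w was already at 38.7 TPM in the fourth library and had 14 TPM in the last (slope 0.93, adjusted p = 0.0122; 1.51 without the latest library, 0.50 and adjusted p = 0.0750 in day 1 alone). Of the gut and endoderm genes 6 of 9 tested were called higher and 2 lower (median slope 0.90). The homeobox gene hth had 0.109, 0.232, 2.89, 9.29, 18.3, 35.5, 67.0, 146 and 425 TPM (slope 1.79, adjusted p = 1.02e-05), and bowl reached 75.0 TPM (slope 1.40, adjusted p = 5.96e-05). The nuclear receptor gene Hnf4 fell, with 100 TPM in the earliest library and 1.42 TPM in the latest (slope -1.16, adjusted p = 8.69e-05; -0.79 and adjusted p = 0.0639 in day 1 alone).

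The lists that follow are small, and over all genes tested 33% were called higher and 35.8% lower. The X-counting and first zygotic genes gave 5 called higher and none lower of 9 (median slope 0.55). Without replicate 6 of day 2, 3 were called. Brd, a Bearded family gene, had 2.58, 0.611, 4.99, 24.3, 13.1, 34.4, 42.7, 62.3 and 63.2 TPM (slope 1.04, adjusted p = 0.000399; 0.50 and adjusted p = 0.225 in day 1 alone). Ocho and BobA, of the same family, stayed at or under 11.1 TPM (slopes 0.76 and 0.66, adjusted p = 0.00151 and 0.0018). Of 5 Enhancer of split complex and Notch genes tested, 2 were called higher: E(spl)m4-BFM with a slope of 0.61 and E(spl)m7-HLH with 0.46 (adjusted p = 0.000445 and 0.0202). The second call did not hold without replicate 1 or 3 of day 2 (adjusted p = 0.0617 and 0.0688), and neither gene was called in day 1 alone (adjusted p = 0.601 for E(spl)m4-BFM and 0.811 for E(spl)m7-HLH). Among pioneer factors and co-activators 6 of 9 were called higher and 1 lower, led by opa and grh, while the bromodomain gene Br140 fell (slope -0.82, adjusted p = 1.27e-05). Without replicate 1 of day 2, 5 were called higher and 3 lower. The late-embryo markers elav, Mlp84B and ple rose with slopes of 1.42, 0.84 and 0.45 (adjusted p = 0.000245, 0.000743 and 0.0213), and all 4 of the 7 that could be tested were called higher; 2 were called without replicate 3 of day 2. The muscle gene Mlp84B had at most 16 TPM and was not called in day 1 alone (adjusted p = 0.226), and the call of ple did not hold without replicate 1 or 3 of day 2 (adjusted p = 0.0582 and 0.0589). Only Fbp1 of the 12 adult or larval genes could be tested (slope 0.37, adjusted p = 0.00893, at most 3.27 TPM), and it fell under the filter without replicate 4 or 6 of day 2 or replicate 1 of day 1. The eggshell genes Cp18 and Cp7Fb had at most 2.13 and 1.51 TPM.

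Cytosolic ribosomal protein genes changed little: all 83 tested slopes were above 0, with a median of 0.092 and 8 called higher. The count was 30 under median-ratio scaling. It also depended on single libraries, being 53 without replicate 1 of day 2, 5 without replicate 3, 1 without replicate 4, 0 without replicate 6, and 1 and 3 without replicates 1 and 2 of day 1. RpL21 had a lowest, median and highest level of 770.5, 1463 and 2329 TPM (slope 0.21, adjusted p = 0.0274), and RpS15Ab had 33.2, 44.7 and 69.6 TPM (slope 0.20, adjusted p = 0.0195). RpL21 was not called without replicate 4 or 6 of day 2 or replicate 1 of day 1 (adjusted p = 0.0601, 0.0892 and 0.0541), nor RpS15Ab without replicate 6 (0.165), and neither was called in day 1 alone (0.128 for RpL21 and 0.712 for RpS15Ab). RpS10a, the copy with the steepest slope (0.65, adjusted p = 0.00834), was under 1 TPM in the first 6 libraries and had 3.51, 1.53 and 18.1 TPM in the last 3.

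**Figure D4:**
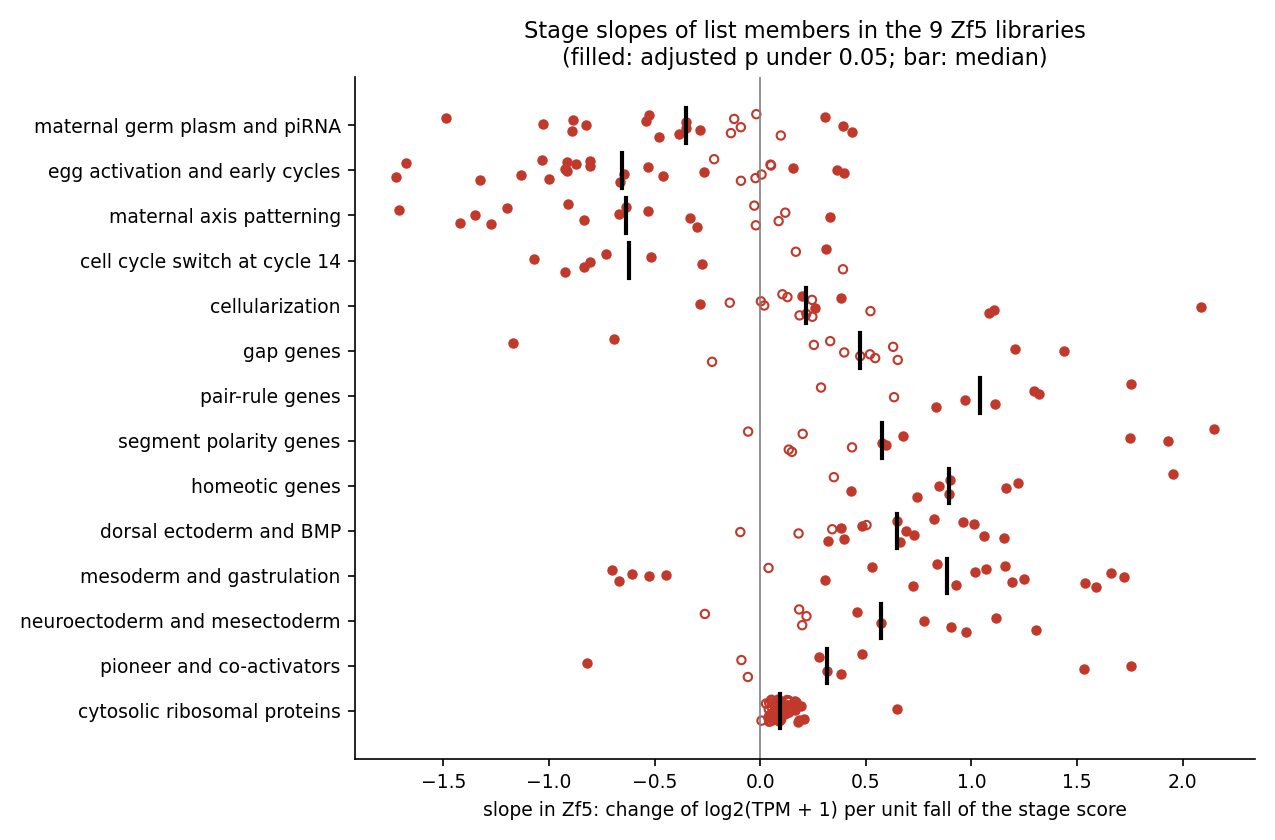
Slopes of the members of 14 gene lists in the 9 Zf5 libraries; each point is a gene, filled where the adjusted p is under 0.05, and the bar is the list's median. Maternal lists lie left of 0 (medians -0.35 to -0.65), pair-rule and homeotic genes right of it (1.04 and 0.89), and ribosomal protein genes close to it (0.092).

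Clearance of maternal transcripts was seen throughout the series. The steepest fall was that of zpg, a germline gap junction gene, with 448, 290, 234, 150, 14.3, 7.98, 2.34, 2.65 and 0.785 TPM from the earliest to the latest Zf5 library (slope -1.87, SE 0.16, adjusted p = 1.91e-05). Its level broke between the fourth and the fifth library. Pxt, a peroxidase-family gene of the ovary, declined evenly, with 2052, 1303, 730, 282, 159, 81.6, 27.5, 14.7 and 8.41 TPM (slope -1.68, SE 0.11, adjusted p = 1.02e-05). swa, needed to place bcd mRNA at the anterior, had 1031, 658, 357, 152, 99.5, 51.6, 28.8, 5.55 and 2.28 TPM (slope -1.71, SE 0.12, adjusted p = 1.27e-05).

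The meiotic Polo inhibitor gene mtrm had a lowest, median and highest level of 2.08, 30.1 and 736 TPM (slope -1.72). The translational repressor gene bru1 had 7.27, 30.6 and 1546 TPM (slope -1.68), and was highest in the second library. Ggt-1, a gamma-glutamyl transpeptidase gene, had 4.39, 41.9 and 1031 TPM, the aldo-keto reductase gene Akr1B 1.05, 18.6 and 438 TPM, and olf186-M 0.583, 23.0 and 200 TPM (slopes -1.65, -1.65 and -1.62). The 8 steepest falls were called in every alternative in which they were tested. Reads of mtrm and olf186-M may be shared with Exo70 and Orai, which overlap them on the same strand.

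By function, 12 of 20 germ plasm and piRNA genes were called lower and 3 higher (median slope -0.35). The translational regulators BicC and orb fell with slopes of -1.49 and -1.03 (adjusted p = 0.000215 and 0.000222), and the piRNA gene krimp with -0.89 (adjusted p = 3.22e-05). In day 1 alone BicC was not called (slope -0.68, adjusted p = 0.133). BicC had 157 and 259 TPM in the first 2 libraries and at most 5.20 TPM from the fourth onward. The 3 that rose, named after their values were seen, were the piRNA genes AGO3, tej and mael, with slopes of 0.44, 0.39 and 0.31. AGO3 had 53.0 TPM in the earliest Zf5 library, the lowest of the 9, and 379 TPM in the latest.

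Of 26 egg activation and early cycle genes 17 were called lower and 3 higher (median slope -0.65), and of 17 maternal axis genes tested 12 and 1 (median -0.63). The regulatory subunit gene gnu of the Pan Gu kinase had 609, 347, 159, 69.3, 33.9, 23.4, 11.6, 7.14 and 7.26 TPM (slope -1.33, adjusted p = 3.56e-05). The Toll ligand gene spz had 215, 227, 149, 85.0, 48, 22.7, 11.3, 3.47 and 1.98 TPM (slope -1.42, adjusted p = 1.27e-05). dl, the transcription factor gene of the same pathway, was at or under 9.58 TPM from the fourth library onward (slope -1.35, adjusted p = 8.27e-05). smg, which encodes the clearance factor Smaug and was named after its values were seen, went late: it had 1784 to 3183 TPM in the first 5 libraries, 1687 and 1600 TPM in the sixth and seventh, and 220 and 63.7 TPM in the last 2 (slope -1, adjusted p = 0.000493). Of 10 genes of the cell cycle switch at cycle 14, 7 were called lower and 1 higher (median -0.62): the Cdc25 gene stg (slope -0.92), the cyclin-dependent kinase inhibitor gene dap (-1.07) and the anaphase-promoting complex activator gene fzr (-0.83) all fell. In day 1 alone the slope of dap was -0.22 (adjusted p = 0.720), and without replicate 6 of day 2, 3 of the 10 were called higher. Across all genes tested 35.8% were called lower, and 2.57% had a called slope of -1 or less, against 10% of germ plasm, 19.2% of egg activation and 29.4% of maternal axis genes. The score genes are maternal transcripts too, so these directions are not independent of how the order was made. Every list median kept its sign under median-ratio scaling. With 1 TPM required in every Zf5 library, some medians changed sign, and few zygotic genes could be tested. The median was -0.57 for 6 mesoderm and gastrulation genes (1 called higher, 5 lower) and -0.44 for 3 gut and endoderm genes (0 and 2). It was -0.032 for 2 Enhancer of split complex and Notch genes. The 1 segment polarity gene left had a slope of -0.057, and 0 homeotic genes were tested.

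Across the named genes, 64 were called in Zf5, 53 of them could be tested in day 1 alone and 15 of those were not called there. With 3 libraries, day 1 p-values rest mainly on spread pooled over genes, so a call kept there is not a separate check. Without the 2 latest day 2 libraries fewer list members were called. Over all 7295 genes tested there, 417 were called higher and 1588 lower. Those called higher were 3 of 9 segment polarity genes, 6 of 7 homeotic genes, 9 of 13 dorsal ectoderm and BMP genes, 9 of 15 mesoderm and gastrulation genes, and 5 of 11 neuroectoderm genes. They were 3 of 13 genes of germband extension, 2 of 8 X-counting genes, 3 of 16 cellularization genes, 3 of 9 pioneer factors and 1 of 13 gap genes. Those called lower were 7 of 20 germ plasm, 13 of 26 egg activation and 9 of 17 maternal axis genes, and no member of these 3 lists was called higher.

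The same fit was made in the 9 WT libraries, scored by the same 8 transcripts. Of 7152 genes tested in WT, 1896 (26.5%) were called higher and 2760 (38.6%) lower in later libraries, 65.1% in all. The WT count of rises leaned on a few libraries: it was 993 without replicate 5 of day 2, 1246 without replicate 2 and 915 without replicate 3 of day 1. Without the 2 WT libraries farthest from the median score none was called in either direction by limma, with 141 and 900 genes at an unadjusted p under 0.05 in the higher and lower direction. Among 7000 genes tested in both genotypes, 1320 of the 1837 WT rises were also called rises in Zf5, which is 71.9% of the WT rises and 72.4% of the 1824 Zf5 rises. Another 14 were called falls and 503 were not called in Zf5. Of the 2750 WT falls, 2280 were called falls in Zf5, which is 82.9% of them and 80.7% of the 2825 Zf5 falls; 11 were called rises and 459 were not called. Of the 2413 genes called in neither direction in WT, 20.4% were called rises and 22% falls in Zf5. The WT rises had a median slope of 0.28 in Zf5 and 0.35 in WT, and the WT falls of -0.54 in Zf5 and -1.06 in WT. Both classes were picked by their WT slopes, which favours steeper slopes in WT. The slopes also span unlike ranges of score, 1.89 units in WT and 4.75 in Zf5. These medians therefore do not compare the pace of change between genotypes.

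Of the 7900 genes tested in Zf5, 900 were under 1 TPM in too many WT libraries to be tested there. Of the 2606 Zf5 rises, 782 (30.0%) were such genes. A gene that passed the filter only through late Zf5 libraries was favoured to rise, so this count is a description. ci, HmgZ, opa, nkd, knrl, abd-A and Antp were among the 782. ci had 240 and 616 TPM in the last 2 Zf5 libraries, against 5.07 and 13.9 TPM in the last 2 WT libraries. Those Zf5 libraries were later, with scores of 5.61 and 4.11 against 7.14 and 6.85 in WT. At a score of 6.89, close to that of the latest WT library, Zf5 had 18.5 TPM of ci. Conversely, 152 of the 7152 genes tested in WT did not reach 1 TPM in 3 Zf5 libraries. The same held for 59 of the 1896 WT rises (3.11%). Low levels in most Zf5 libraries were thus fixed by how these 59 were picked. Elba1, which encodes an insulator-binding protein, led them by WT level: no Zf5 library had more than 0.833 TPM, while the WT libraries had 149, 7.72, 79.2, 108, 590, 491, 45.5, 1066 and 1400 TPM from early to late. CG14014 had at most 0.974 TPM in Zf5, against 639 and 714 TPM in the last 2 WT libraries. dunk, a cellularization gene, had at most 1.21 TPM in Zf5 and at least 492 TPM in those 2. Bro, which encodes a partner of the Runt factors, had at most 3.25 TPM in Zf5, against 288 and 338 TPM in the last 2 WT libraries. Dtg was an exception among them: it had at most 0.154 TPM up to the seventh Zf5 library, then 6.19 and 24.7 TPM.

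Whether slopes differed between the genotypes was tested directly in 18 libraries with an intercept for each genotype and day. Of 8143 genes, 538 (6.61%) had a more positive slope in Zf5 than in WT and 92 (1.13%) a more negative one, 7.74% in all. Of 7000 genes that had passed the filter on low values in both genotypes, 435 and 43 were called. The calls were 99 and 1 of 900 that passed in Zf5 only, and 4 and 41 of 152 in WT only. They were 0 and 7 of 91 that passed in neither genotype alone. A gene that passed only where it is high was favoured to differ by the filter, so these are given as counts alone. The calls on the difference rested on few libraries. None was made by limma without replicate 5 of WT day 2 (756 and 207 genes at an unadjusted p under 0.05, more positive and more negative) or without replicate 3 of WT day 1 (1416 and 175), the 2 latest WT libraries. The counts were 12 and 7 without replicate 2 of WT day 1, and 262 and 54, 87 and 36, 782 and 140, and 316 and 67 without replicates 2, 3, 4 and 6 of WT day 2. They were 993 and 129, 1077 and 172, 329 and 61, and 259 and 50 without replicates 1, 2, 5 and 6 of Zf5 day 2. With only the 4 Zf5 libraries inside the WT range of scores, an alternative added after the data were seen, no gene was called (228 and 213 at an unadjusted p under 0.05). In the full fit 630 genes were called; 622 of them could be tested without each of the 2 latest WT libraries in turn, and all 622 kept their sign both times. Without the 2 libraries of each genotype farthest from its median score 493 of 581 did, and with Zf5 inside the WT range 521 of 528. All libraries of these fits were also in the full fit that chose the genes, so kept signs are not independent of the calls.

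Of the 5 genes with the most negative difference, sca and Z600 had passed the filter on low values in both genotypes. sca, which encodes a secreted protein of neural patterning, had 0.0663, 0, 1.18, 2.08, 2.70, 3.35, 1.21, 6.79 and 22.8 TPM from early to late in Zf5, against 0.176, 0, 0.106, 0.0901, 13.2, 1.56, 0, 62.2 and 147 TPM in WT. Its slope was 0.78 in Zf5 and 3.64 in WT, a difference of -2.87 (SE 0.57, limma adjusted p = 0.0152). Z600, whose small product holds back mitosis in the early embryo, had at most 2.08 TPM in Zf5 and 141 and 327 TPM in the last 2 WT libraries (difference -2.62, SE 0.65, adjusted p = 0.029). Z600 lies on chromosome 3L from 15509061 to 15509513, within gdl on the same strand.

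CG43725, CG14915 and CG34214 had passed the filter in WT only, so their levels are a description with no test. CG43725 and CG14915, which start at 11075513 and 11071027 on chromosome 2L, had at most 2.46 and 2.03 TPM in Zf5, against 216 and 369 TPM in the latest WT library. CG34214, which overlaps ND-19 on the other strand, had at most 1.49 TPM in Zf5 and 519 TPM in the latest WT library. Neither these 3 genes nor Z600 passed 2.46 TPM at any stage of the Zf5 series. Sxl, the sex determination switch gene, was chosen after its values were seen: it had 12.3 to 131 TPM in Zf5 and 434 and 665 TPM in the last 2 WT libraries (difference -2.21, adjusted p = 0.0228).

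**Figure D5:**
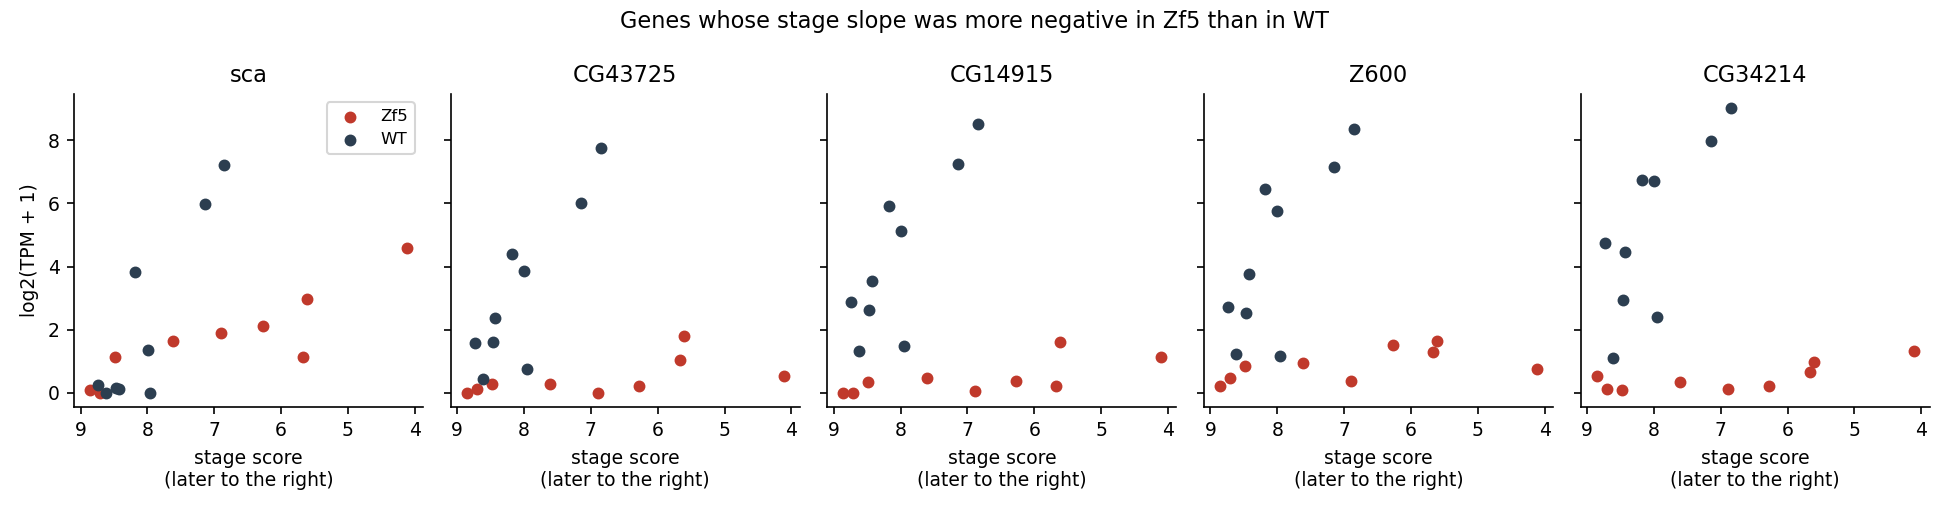
Level, as log2(TPM + 1), against stage score (later to the right) for the 5 genes with the most negative difference of slopes; red is Zf5 and dark blue WT. The latest WT library had 147 to 519 TPM, while the highest Zf5 level of any gene other than sca was 2.46 TPM.

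The 5 most positive differences were those of bsf, lap, SREBP, CG12945 and Su(z)2, all of which passed the filter in both genotypes. bsf, a mitochondrial RNA-binding protein gene, had 71.9, 63.0, 47.0, 32.5, 24.5, 25.4, 17.6, 37.6 and 41.5 TPM in Zf5, against 46.3, 112, 90.4, 56.4, 34.5, 36.0, 46.5, 1.46 and 3.35 TPM in WT. The slope was -0.20 in Zf5 and -2.70 in WT, a difference of 2.50 (SE 0.36, adjusted p = 0.00396). lap, an endocytic adaptor gene, SREBP, a lipid synthesis regulator gene, and CG12945 had differences of 2.18, 2.18 and 2.11 (adjusted p = 0.0159, 0.0228 and 0.0319). In Zf5 each was lowest between the fifth and the sixth library and higher again in the last 2: SREBP had 48.6, 41.3, 13.1, 2.58, 2.18, 1.82, 1.99, 13.1 and 14.1 TPM. In WT its last 2 libraries had 0.972 and 1.40 TPM.

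Su(z)2, a Polycomb group gene, went in opposite directions, with 1.15 to 32.6 TPM and a slope of 0.76 in Zf5 and 1.15 to 18.2 TPM and a slope of -1.27 in WT (difference 2.03, SE 0.35, adjusted p = 0.00889). The maternal gamma-tubulin gene gammaTub37C, named after its values were seen, stayed between 94.2 and 244 TPM over the whole Zf5 series, against 1.39 to 34.2 TPM in WT; every Zf5 library was above every WT library. Its slope was 0.01 in Zf5 and -1.74 in WT (difference 1.75, SE 0.33, adjusted p = 0.0134). By list, the difference was called in the positive direction for 4 of 20 germ plasm, 3 of 26 egg activation, 0 of 17 maternal axis and 3 of 20 mesoderm and gastrulation genes, and in the negative direction for 2 of 18 cellularization genes. None of 13 gap, 8 pair-rule, 11 segment polarity or 18 dorsal ectoderm and BMP genes was called. Of all genes tested, 6.61% were called in the positive and 1.13% in the negative direction. At such shares a list this small with none called says little. Over all genes tested the median difference was 0.0766. It was -1.18 for the gap genes, of which 2 lay above 0, and -1.13 for the dorsal ectoderm and BMP genes, of which 3 did.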

How the data were processed

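RNA from pools of 3 embryos was sequenced in 26 libraries, 9 of them Zf5. The deposited values are TPM per gene symbol (14220 symbols), the unit being read from the values, whose columns each sum to 1e+06. The submitters' processing notes name kallisto, edgeR, limma and the build BDGP6. TPM keeps no depth, so the depth of each library is unknown here. Groups came from sample titles.

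Genes with at least 1 TPM in at least 3 libraries of a fit were tested on log2(TPM + 1) with limma 3.58.1 (R 4.3.3; lmFit and eBayes with trend), with the score and the day as terms, leaving out the 8 score genes. Fold changes on this scale understate the change of low genes. The difference of slopes used 18 libraries. P-values were Benjamini-Hochberg adjusted over all genes tested, with a threshold of 0.05. On simulated data, 98.5% of 200 changed genes with a slope of 1 were recovered in the Zf5 fit (7962 genes) and 74.5% in the difference (7788 genes). Of the calls, 4.83% and 5.70% were false. The changed genes were of middle level and no other gene changed, so these shares do not carry over to low genes or to single deviating libraries.

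Named genes were the 8 largest rises and 8 largest falls called in Zf5 with a mean of at least 5 TPM, the 5 largest differences each way, up to 3 called members of each list with the steepest slopes (or, with none called, the 2 of highest mean), zld and the score genes. The members and lists were chosen with earlier results of these data known. Alternatives changed the pseudocount, filter, scaling, score, day term, fit and libraries. Of the symbols, 13999 matched the BDGP6.54 annotation. No identical values were found between libraries (highest r 0.997).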

Additional observations from a re-analysis of the deposited data

Results flagged for a closer look

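Of 91 groups of samples examined for a library far from the rest, 4 had one, and chance gives about 1 in 20. RpS10a had 18.1 TPM in replicate 6 of Zf5 day 2, far above the other 5 libraries of that group. CG43725 had 2.46 TPM in replicate 4 of Zf5 day 2, above the others of the group. In replicate 5 of WT day 2, bsf had 1.46 TPM, far below the rest of its group, and sca had 62.2 TPM, far above it. The 10 genes named for their difference of slopes between Zf5 and WT were picked as the 5 largest calls each way. That all 10 passed the test was therefore fixed by the choice. The difference was 2.50 for bsf, 2.18 for lap, 2.18 for SREBP, 2.11 for CG12945 and 2.03 for Su(z)2. It was -2.87 for sca, -2.85 for CG43725, -2.68 for CG14915, -2.62 for Z600 and -2.61 for CG34214. CG43725, CG14915 and CG34214 passed the filter on low values through WT libraries only, so their differences are a description. None of these 10 was called without replicate 5 of WT day 2 or without replicate 3 of WT day 1.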

How the results depend on the processing

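In Zf5, 2606 genes were called higher and 2829 lower. The count higher was 5038 with no filter on low values (13176 tested), 1532 with 1 TPM required in every library (6245 tested), 417 (1588 lower) without the 2 libraries with most genes and 210 (698 lower) in day 1 alone. Leaving out 1 library at a time gave 1985 to 2629 higher and 2368 to 2866 lower. In WT, with 1896 higher, the count was 513 in day 2 alone, 695 with the score from bcd, nos, osk and CycB, 451 with the rank of the score, and 0 higher and 0 lower without the 2 libraries farthest from the median score (141 and 900 at an unadjusted p under 0.05 by limma). Leaving out 1 WT library gave 915 to 2087 higher and 2229 to 2794 lower. For the difference of slopes (538 more positive, 92 more negative), more negative calls numbered 49 with a pseudocount of 0.1, 24 with 1 TPM in every library and 153 with median-ratio scaling, and more positive ones 358 with no filter. Both counts changed to 78 and 53 with no day term, 1066 and 200 with the score from twe, Hsp83, pgc and gcl, 2 and 0 with that from bcd, nos, osk and CycB, and 44 and 28 without the 2 Zf5 libraries with most genes. They were 0 and 0 by limma in day 2 alone (1036 and 122 at an unadjusted p under 0.05), with the rank (1129 and 257), without the 2 farthest libraries of each genotype (261 and 85) and with Zf5 libraries inside the WT score range (228 and 213). Leaving out 1 library gave 0 to 1077 more positive and 0 to 172 more negative. The slope of SoxN in day 1 alone was -0.0150. Of 53 named genes called in Zf5 and tested in day 1 alone, where p-values rest mainly on spread pooled over genes, 15 were not called. The cause of these changes was not tested. Median-ratio scaling moved the median WT slope from -0.0779 to 0.0362. Same-numbered samples of the 2 days correlated at 0.593, -0.034 and -0.044 in Zf5 and 0.379, 0.024 and 0.560 in WT. Replicate 1 of Zf5 and replicate 3 of WT matched their own number best, and the others did not. These correlations cannot settle whether the numbers pair samples, as each genotype had 3 libraries on day 1. With the replicate block the counts were 2073 and 2401 in Zf5, 1052 higher in WT, and 30 and 8 for the difference. TPM gives no depth, so no limit of detection could be set.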
